A study of Mus musculus with 6 samples.

Results

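The genes described here make, import, move and store cholesterol, or control how much of it a cell makes. They are 30 named genes of the 24129 gene names in the table of normalized counts, and all 30 were found by their symbol. They fall into 8 genes of the mevalonate and isoprenoid steps, 3 of squalene and lanosterol, 8 of the late sterol steps, 4 of SREBP control, 4 of uptake and transport, and 3 of export and storage. The list was drawn up with the differences between T1 and T2 cells already known, so those differences are given as a description. Where members are counted by the study's thresholds, the counts describe the list and are no evidence for it, and no p-value of a member is printed.

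RNA sequencing values of 3 replicates of T1 cells (4T1A in the labels) and 3 replicates of T2 cells (4T1NA) were compared. Both populations come from 4T1GFP, the 4T1 mouse mammary carcinoma line carrying green fluorescent protein, which was injected into the mammary fat pad of BALB/c mice at 6 to 8 weeks of age. They were sorted by GFP from the culture of 1 resected primary tumor, a culture started from a fibroblast gate on CD140a (the protein of Pdgfra) in which tumor cells had taken over. T1 cells had low GFP, attached to the dish, and are labelled as fast growing and aggressive. T2 cells had high GFP, were round and loosely attached, are labelled as slower growing and less aggressive, and were passaged without trypsin like a suspension culture, so the population and its way of culture cannot be told apart. Both were kept in DMEM/F-12 with fetal bovine serum, penicillin and streptomycin, and no drug is named for these samples. The series' text calls the replicates independent without saying whether they were separate cultures, so p-values measure only the spread between these samples, which may be technical.

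Animal cells build cholesterol from acetyl-CoA through mevalonate, isoprenoid units, squalene and lanosterol, and the same isoprenoids feed protein prenylation, dolichol and ubiquinone. When membrane sterol is low, Scap carries the SREBP factors from the endoplasmic reticulum to the Golgi, where they are cut and released to switch on genes of synthesis and uptake. When sterol is plentiful, Insig proteins hold Scap back. Cells with a surplus turn on cholesterol exporters through the liver X receptors and store the rest as esters.

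The libraries held 18133227 to 20839686 reads on genes (the counts of each sample summed over genes), and among the members Abca1, Abcg1, Mylip and Tm7sf2 had the fewest reads and so the largest counting error. Of 8 epithelial markers, 7 had enough reads to be compared, with 5 higher and 0 lower in T1 cells by limma (Benjamini-Hochberg adjusted p below 0.01). By the same threshold 25.1% of all 11514 genes tested were higher and 24.4% lower. Krt8 and Krt18 were abundant in both populations, Epcam had 3141 normalized counts in T1 cells against 34.7 in T2 cells, and Krt5 was at 0. The summed level of the 8 markers was 72393 to 80703 normalized counts in T1 libraries and 37492 to 43415 in T2 libraries. In T2 libraries it came mostly from Krt8 and Krt18, at means of 19195 and 21658. Cdh1 had a mean of 14748 in T1 and 465 in T2 cells. Krt14 was at 3795 and 3.04, Krt19 at 3177 and 2.91, and Cldn4 at 5530 and 5.29. Apart from Pdgfra, Cd14 and Cd68, the listed genes of other cell types that such a culture could hold had few reads. The fibroblast genes Col3a1, Lum and Pdgfrb, the leukocyte genes Tyrobp and Adgre1, the endothelial genes Kdr and Emcn and 4 of 5 adipocyte genes were at 0 in every library. The 8 fibroblast genes summed to 225 to 241 normalized counts in T1 and 997 to 1297 in T2 libraries, mostly Pdgfra. Pdgfra was lower in T1 cells, with a log2 fold change of -2.45. Col1a1 was higher, at 14, 30 and 25 reads in the T1 and 1, 0 and 0 in the T2 libraries. Col1a2 had 4, 7 and 12 reads in the T1 libraries and 0 in each T2 library. The 8 leukocyte genes summed to 385 to 463 in T1 and 166 to 203 in T2 libraries, mostly Cd14 and Cd68. The 5 endothelial genes summed to at most 14.8 in any library. The 8 proliferation genes were all well covered, and 1 was higher and 2 lower in T1 cells, with summed levels of 64858 to 71389 in T1 and 77574 to 82254 in T2 libraries. The part of these differences in the values below was not tested.

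In T1 cells 18 of the 19 enzymes of sterol synthesis had all 3 values above all 3 of T2 cells, beside 34.2% of all 11514 genes tested, and the choice of the list with this contrast in view means that nothing is read from the count. Together the 19 enzymes took 0.242%, 0.239% and 0.199% of all normalized counts in the T1 libraries, and 0.0496%, 0.0529% and 0.0527% in the T2 libraries. The means were 0.227% ± 0.0238 and 0.0517% ± 0.00183 (± SD, n = 3 per population), a ratio of 4.38. Control of the pathway was split, with Srebf2 and Insig1 higher in T1 cells and Scap and Insig2 overlapping between the populations. On the storage side the order turned, and Soat1, which makes cholesteryl esters, was 4.15-fold higher in T2 cells. In bulk RNA, fewer cells that express a gene and less of its RNA in each cell cannot be told apart.

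**Figure D1:**
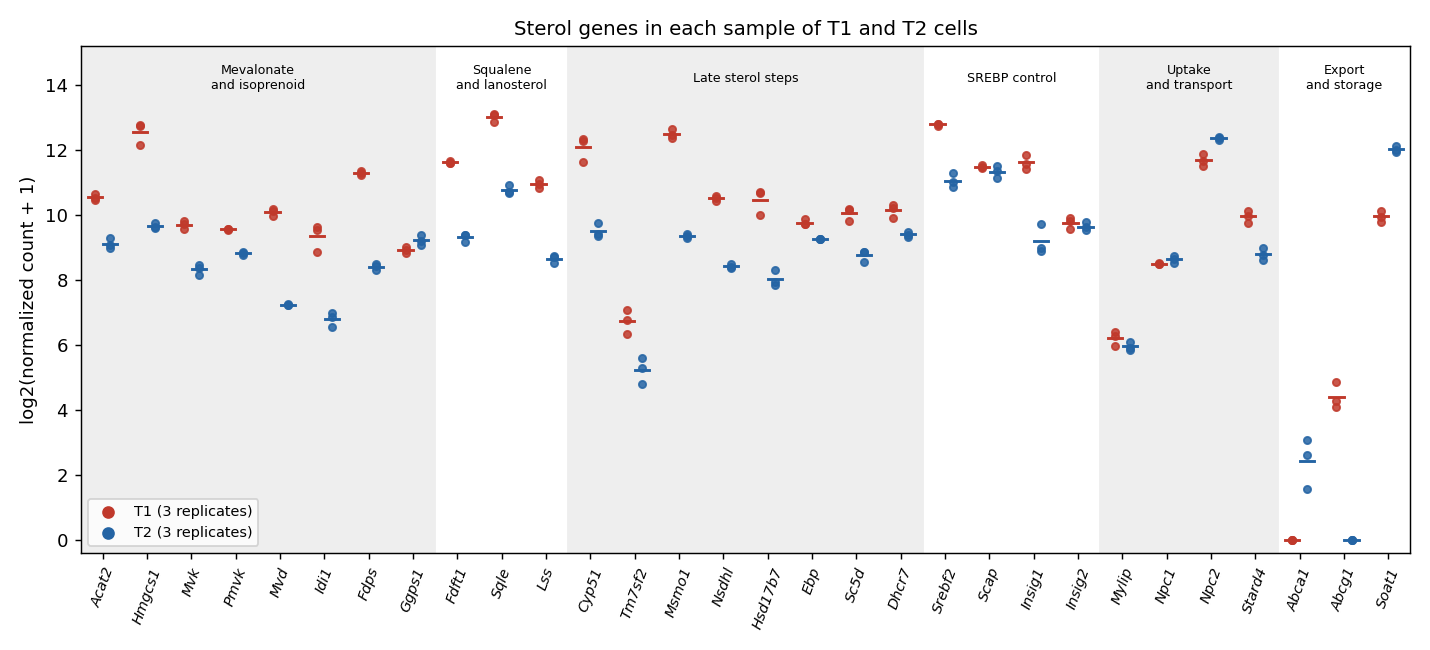
Log2(normalized count + 1) of the 30 sterol genes in each sample, grouped by pathway step, with T1 replicates in red, T2 replicates in blue and a bar at each mean. Of the 19 synthesis enzymes, 18 have their T1 points above their T2 points, with Ggps1 the exception, while Scap, Insig2 and Mylip overlap and Npc1, Npc2, Abca1 and Soat1 lie lower in T1 cells.

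The upstream sequences of 5 members are shown. Hmgcs1, Insig1, Cyp51 and Idi1 were higher in T1 cells, with log2 fold changes of 2.43 to 2.90, and Soat1 was lower at -2.06. No member with a small change is among them. The sequences do not all hold the same elements known from sterol control. They come from RefSeq on build GRCm38.p6 and run from 250 bases before to 50 bases after an annotated start, and 24 of the 30 members had such an entry, all but Fdps, Fdft1, Sqle, Npc1, Stard4 and Abcg1. Capitals mark a form of the sterol regulatory element (TCACNCCAC, or the shorter CACNCCAC contained in it), the NF-Y box CCAAT, the Sp1 box GGGCGG and the E-box CACGTG, each on either strand.
Hmgcs1 (chr13:119690101-119690400, plus strand): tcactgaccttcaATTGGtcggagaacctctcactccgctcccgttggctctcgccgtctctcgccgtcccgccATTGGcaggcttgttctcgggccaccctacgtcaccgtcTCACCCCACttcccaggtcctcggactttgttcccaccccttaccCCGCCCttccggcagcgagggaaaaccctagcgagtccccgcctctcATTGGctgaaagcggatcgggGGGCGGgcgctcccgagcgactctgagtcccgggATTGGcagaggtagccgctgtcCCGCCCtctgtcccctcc
Insig1 (chr5:28071162-28071461, plus strand): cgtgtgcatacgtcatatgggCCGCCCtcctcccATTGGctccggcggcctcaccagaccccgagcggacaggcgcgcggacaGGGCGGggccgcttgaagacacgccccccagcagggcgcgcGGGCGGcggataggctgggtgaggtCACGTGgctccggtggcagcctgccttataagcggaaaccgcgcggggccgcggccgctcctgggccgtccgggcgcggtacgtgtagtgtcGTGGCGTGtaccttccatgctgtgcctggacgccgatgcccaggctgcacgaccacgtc
Cyp51 (chr5:4104648-4104947, minus strand): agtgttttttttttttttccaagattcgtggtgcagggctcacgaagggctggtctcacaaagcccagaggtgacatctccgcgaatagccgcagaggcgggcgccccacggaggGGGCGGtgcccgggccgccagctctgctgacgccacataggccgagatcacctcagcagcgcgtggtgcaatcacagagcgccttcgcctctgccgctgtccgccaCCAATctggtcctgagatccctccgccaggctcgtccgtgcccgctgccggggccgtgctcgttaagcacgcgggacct
Idi1 (chr13:8885356-8885655, plus strand): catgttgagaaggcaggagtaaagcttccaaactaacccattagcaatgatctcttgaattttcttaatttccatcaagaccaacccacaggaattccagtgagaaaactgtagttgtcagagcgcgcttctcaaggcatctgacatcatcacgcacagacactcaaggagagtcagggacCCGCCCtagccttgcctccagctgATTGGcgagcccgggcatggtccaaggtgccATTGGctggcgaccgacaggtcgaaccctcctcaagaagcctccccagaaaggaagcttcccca
Soat1 (chr1:156474279-156474578, minus strand): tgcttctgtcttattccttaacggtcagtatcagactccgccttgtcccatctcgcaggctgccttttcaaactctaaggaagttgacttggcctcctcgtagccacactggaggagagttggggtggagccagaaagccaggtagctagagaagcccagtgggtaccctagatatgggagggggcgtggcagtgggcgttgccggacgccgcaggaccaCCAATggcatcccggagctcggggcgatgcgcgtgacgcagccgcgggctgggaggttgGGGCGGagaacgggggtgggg

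The 9-letter form TCACNCCAC was found in Hmgcs1 alone among the 24 members, against 1.33% of the 8840 genes tested that had an entry and 1.44% of all 27025 genes with one. The shorter CACNCCAC, tried after that count was seen, was found in Hmgcs1, Insig1 and Acat2, or 12.5% of the members, against 7.62% of the genes tested. In Insig1 it lies on the opposite strand near the start. The NF-Y box was found in 21 of 24 members (87.5%) and in 15 of the 16 synthesis enzymes with an entry, against 43.5% of the genes tested. The Sp1 box was found in 22 of 24 (91.7%) against 71.2%, and the E-box in 6 of 24 (25%) against 12.0%. Soat1, which went the other way, also holds an NF-Y box and an Sp1 box, as the sequence above shows. The NF-Y box was found as well in Ggps1, Insig2, Mylip and Npc2, which were not higher in T1 cells by the adjusted p. These are matches of letters in a short window and are not measured binding sites.

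The mevalonate steps turn acetyl-CoA into the isoprenoid building blocks. Acat2 joins the first acetyl units in the cytosol, and Hmgcs1, HMG-CoA synthase, adds the next. Hmgcs1 (chromosome 13, 119690379 to 119708260 of mm10, plus strand) had 6896, 6925 and 4575 normalized counts in the T1 replicates and 777, 788 and 854 in the T2 replicates. Every T1 value was at least 5 times the T2 values, although T1 replicate 3 lay well below the other two. Its log2 fold change was 2.90 with a standard error of 0.14. Acat2 was at 1496 ± 101 in T1 and 554 ± 58.3 in T2 cells (± SD, n = 3 per population), a log2 fold change of 1.43. Transcripts of Acat2 share 1477 bases at 97.7% identity with its neighbor copy Acat3, which had at most 19 reads in any library. They also share 445 bases at 98.7% identity with Tcp1. Tcp1 had 14306, 16547 and 14115 reads in the T1 libraries and 9666, 8670 and 10697 in the T2 libraries. Reads could have been divided among these genes, and the part of this in the Acat2 values was not tested.

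Mvk and Pmvk add phosphate groups to mevalonate, and Mvd then removes carbon dioxide to give isopentenyl diphosphate. The 3 enzymes did not move by like amounts. Mvd (chromosome 8, 122433601 to 122443422, minus strand) had 1115, 1002 and 1173 normalized counts in T1 and 148, 149 and 151 in T2 cells, with T2 values close to each other. Its log2 fold change was 2.86 with a standard error of 0.11. Mvk was at 833 ± 71.2 and 321 ± 36.2 (± SD, n = 3 per population), a log2 fold change of 1.38. Pmvk stood at 753 ± 11.2 and 451 ± 14.4 (± SD, n = 3 per population), with a log2 fold change of 0.74, the smallest among the mevalonate enzymes that were higher in T1 cells. In all 3 genes the populations did not overlap.

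Idi1 interconverts the building blocks of isoprenoids, Fdps joins them to farnesyl diphosphate, and Ggps1 lengthens that to the geranylgeranyl diphosphate used to anchor proteins in membranes. Fdps (chromosome 3, 89093588 to 89101959, minus strand) had 2509, 2416 and 2634 normalized counts in T1 cells and 362, 314 and 341 in T2 cells, a log2 fold change of 2.89 with a standard error of 0.09. Idi1 had 744, 785 and 461 in T1 and 93.0, 116 and 125 in T2 cells, a log2 fold change of 2.54 with a standard error of 0.21. T1 replicate 3 was again the lowest T1 value of Idi1. Ggps1, which leads out of the sterol branch, had 489, 516 and 455 in T1 cells and 541, 582 and 668 in T2 cells. Its T1 values all lay below its T2 values, with a log2 fold change of -0.29 and a standard error of 0.11, and it did not pass the threshold on the adjusted p-value. Fdps shares 26.7% of its exonic bases with the annotated gene Gm43738 and has 5 annotated near-identical copies over 300 bases or more, and Idi1 and Ggps1 have such copies too, so the values of these genes may miss reads that could not be placed.

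Farnesyl units become squalene and then lanosterol through Fdft1, Sqle and Lss, and these 3 genes moved by nearly the same amount. Fdft1 (squalene synthase) had 3204, 3110 and 3085 normalized counts in T1 cells and 671, 577 and 668 in T2 cells. Sqle, squalene epoxidase (chromosome 15, 59315077 to 59331192, plus strand), had 8836, 8616 and 7406 in T1 and 1644, 1922 and 1662 in T2 cells. Lss, which closes the rings to lanosterol, had 2145, 1995 and 1826 in T1 and 412, 426 and 364 in T2 cells. No value of one population reached those of the other. The log2 fold changes were 2.30, 2.25 and 2.31, with standard errors of 0.09, 0.09 and 0.10. Of the exonic bases of Fdft1, 18.3% are shared with Ctsb on the other strand, and the library kit does not mark strand.

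The late steps strip methyl groups from lanosterol and move its double bonds until cholesterol is reached, and their log2 fold changes ran from 0.50 to 3.13. Cyp51, the lanosterol demethylase, had 4979, 5143 and 3199 normalized counts in T1 cells and 659, 863 and 676 in T2 cells, a log2 fold change of 2.58 with a standard error of 0.17. The enzymes that remove the next methyl groups are Msmo1, Nsdhl and Hsd17b7. Msmo1 (chromosome 8, 64718139 to 64733792, minus strand) had 5592, 6376 and 5321 in T1 and 630, 682 and 653 in T2 cells. Its log2 fold change of 3.13 (standard error 0.09) was the highest of the synthesis enzymes. Nsdhl, on chromosome X, had 1548, 1480 and 1376 in T1 and 328, 338 and 355 in T2 cells, with a log2 fold change of 2.10. Hsd17b7 had 1653, 1634 and 1019 in T1 and 246, 316 and 228 in T2 cells, a log2 fold change of 2.42 with a standard error of 0.19. Cyp51 and Hsd17b7 repeat the pattern of Hmgcs1 and Idi1, with T1 replicate 3 far under the other T1 replicates.

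Ebp, Sc5d and Dhcr7 had smaller fold changes than Cyp51, Msmo1, Nsdhl and Hsd17b7. Small changes were not limited to late steps, as the early enzyme Pmvk stood at 0.74. Ebp, the sterol isomerase, was at 868 ± 53.3 in T1 and 612 ± 5.45 in T2 cells (± SD, n = 3 per population), a log2 fold change of 0.50. Sc5d, which adds the next double bond, was at 1069 ± 149 and 433 ± 47.4, a log2 fold change of 1.30. Dhcr7, the reductase that yields cholesterol from its immediate precursor, was at 1143 ± 169 and 675 ± 33.4, a log2 fold change of 0.75. All 3 kept their T1 values above their T2 values. Tm7sf2, a sterol reductase with low counts, had 107, 80.0 and 135 normalized counts in T1 and 47.0, 37.9 and 26.9 in T2 cells, a log2 fold change of 1.5 with a standard error of 0.27. Its exons overlap those of Vps51 over 12.1% of their bases, and of the synthesis enzymes it had the widest error.

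**Figure D2:**
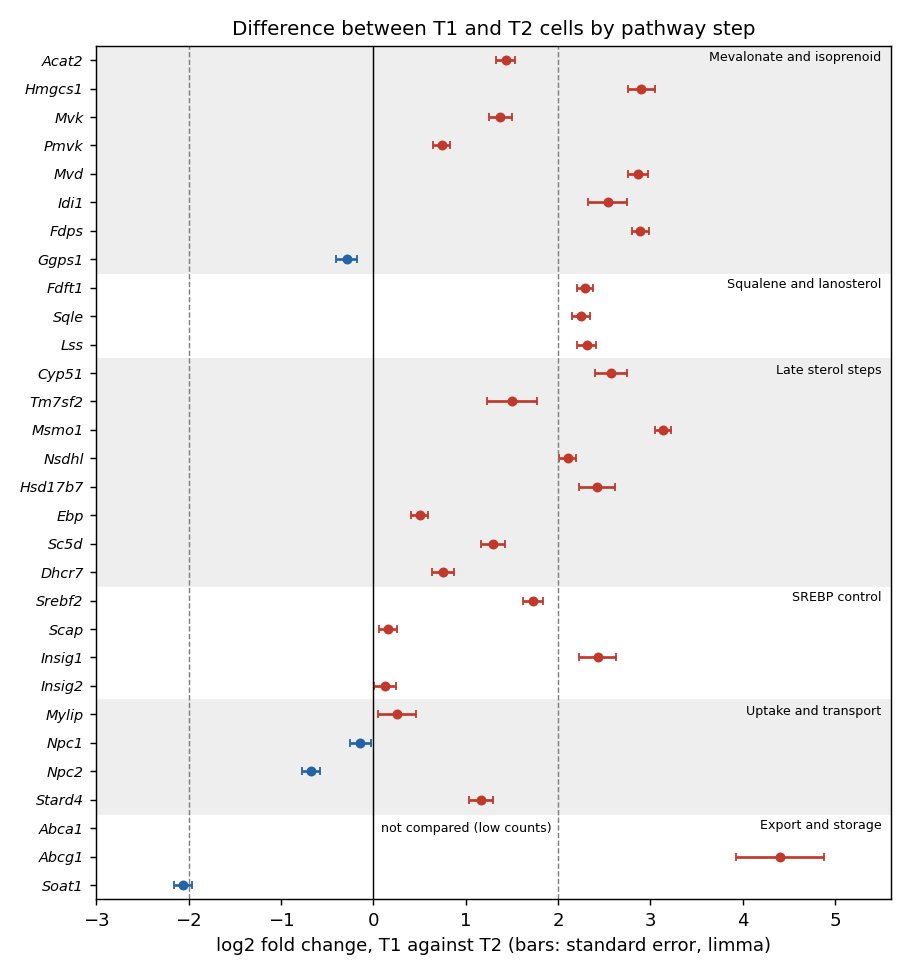
Log2 fold change of each sterol gene, T1 against T2, with its standard error from limma, ordered by pathway step, in red where higher and in blue where lower in T1 cells, with dashed lines at 2 in either direction. The 3 squalene and lanosterol genes sit together at 2.25 to 2.31, the late steps spread from 0.50 to 3.13, and Soat1 lies at -2.06.

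The study's methods ask for an adjusted p below 0.01 together with a log2 difference over 2. Of the 30 members 14 were past both thresholds, beside 8.37% of all 11514 genes tested, with 13 higher (beside 4.17%) and 1 lower in T1 cells (beside 4.2%). By the adjusted p alone 24 members were past, beside 49.5% of all genes, with 22 higher (beside 25.1%) and 2 lower (beside 24.4%). The replicates did not overlap in 27 members, beside 68.1% of all genes, with T1 above in 22 (beside 34.2%) and below in 5 (beside 33.9%). Since the list was chosen with this contrast in view, nothing is read from these counts. In all, 29 members had a mean of at least 10 normalized counts and entered the fit, and Abca1 did not. Just inside the threshold on the fold change were Soat1 at -2.06 and Nsdhl at 2.10, and just outside were Srebf2 at 1.73 and Tm7sf2 at 1.5. The median log2 fold change was 1.98 over the 8 mevalonate and isoprenoid genes, 2.30 over the 3 squalene and lanosterol genes and 1.80 over the 8 late genes, beside -0.01 over all genes tested.

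Among the genes that control the pathway, the fold changes ranged from 0.13 to 2.43. Srebf2 encodes the SREBP factor best known for sterol genes. It had 7163, 6824 and 7159 normalized counts in T1 cells and 2046, 2520 and 1870 in T2 cells, a log2 fold change of 1.73 with a standard error of 0.10. Scap, the escort of SREBP, had 2859, 2778 and 2988 in T1 and 2596, 2920 and 2255 in T2 cells, so the populations overlapped and the log2 fold change was 0.16 with a standard error of 0.10. Part of the exons of Scap, 13.2%, lies over a transcript on the other strand.

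Insig1 and Insig2 encode related proteins that keep Scap in the endoplasmic reticulum, and Insig1 is itself a known SREBP target. Insig1 (chromosome 5, 28071363 to 28078662, plus strand) had 3060, 3702 and 2727 normalized counts in T1 and 470, 841 and 500 in T2 cells. The T1 values were all far above the T2 values, with a log2 fold change of 2.43 and a standard error of 0.20, and T2 replicate 2 was the highest of the T2 values. Insig2 had 754, 899 and 965 in T1 and 783, 736 and 872 in T2 cells. These overlapped, and its log2 fold change was 0.13 with a standard error of 0.12. Per kilobase of exon, the Insig1 level was 4.55, 4.62 and 3.17 times that of Insig2 in the T1 replicates and 0.674, 1.28 and 0.644 times in the T2 replicates. The ratio was thus 4.12 ± 0.818 in T1 and 0.867 ± 0.360 in T2 cells (± SD, n = 3 per population), and the more abundant Insig transcript in T1 cells was Insig1 in every replicate, while in T2 cells it was Insig2 in all but replicate 2.

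Uptake and movement of cholesterol showed no common direction. Mylip encodes the ubiquitin ligase that removes lipoprotein receptors from the surface and is a target of the liver X receptors. It had 61.4, 77.2 and 83.0 normalized counts in T1 and 56.8, 67.6 and 59.4 in T2 cells, and the populations overlapped. Npc1 and Npc2 hand cholesterol out of the lysosome. Npc2, the soluble partner, had 2903, 3746 and 3230 in T1 and 5319, 5348 and 5028 in T2 cells, a log2 fold change of -0.68 with a standard error of 0.09. Npc1, the membrane partner, was at 361 ± 3.22 and 399 ± 30.3 (± SD, n = 3 per population). Its T1 values were all below its T2 values by a small margin, with a log2 fold change of -0.14 and a standard error of 0.11. Stard4 carries sterol through the cytosol and is itself controlled by SREBP. It went with the synthesis genes, at 1008, 1119 and 866 in T1 and 390, 508 and 437 in T2 cells, a log2 fold change of 1.16 with a standard error of 0.13.

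Storage and export were divided gene by gene. Soat1, the acyltransferase that stores cholesterol as ester (chromosome 1, 156424525 to 156474331, minus strand), had 986, 1124 and 885 normalized counts in T1 cells and 3945, 4422 and 4080 in T2 cells. The populations were far apart, with a log2 fold change of -2.06 and a standard error of 0.10. Without T1 replicate 3 it was -1.98, which no longer passed the threshold of 2. Abca1 and Abcg1 pump cholesterol out of cells and are both induced by the liver X receptors. Abca1 had 0 reads in each T1 library and 2, 5 and 8 reads in the T2 libraries. Abcg1 had 15, 30 and 19 reads in the T1 libraries and 0 in each T2 library. Each exporter was therefore read in a single population, and at a level far below the rest of the members. A count of 0 allows up to 3 reads in a library, by counting error only. The T2 mean of Abca1 was 1.63 times that floor, and the T1 mean of Abcg1 was 7.09 times it. The counting error of these means is left out. The 2 reads of Abca1 in T2 replicate 1 lie under the floor, so its value is no lower bound. Abcg1 entered the fit through its T1 reads alone, and its fitted log2 fold change of 4.41 depends on the pseudocount.

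Levels of different genes can be compared only per length, here as normalized counts per kilobase of annotated exon. In T1 cells the order began with Sqle at 1494, Hmgcs1 at 1335, Insig1 at 1023, Cyp51 at 1006, Srebf2 at 981 and Msmo1 at 938. In T2 cells it began with Npc2 at 962, Soat1 at 424, Scap at 348, Sqle at 314 and Srebf2 at 299. Only Sqle and Srebf2 stood in the first 5 of both orders. Msmo1 fell from rank 6 in T1 cells to rank 18 in T2 cells, and Soat1 rose from rank 25 to rank 2. The level of Sqle per kilobase was 15.8, 13.5 and 14.8 times that of Soat1 in the T1 replicates and 0.736, 0.767 and 0.719 times in the T2 replicates. An epoxidase of synthesis thus outweighed the storage enzyme in all T1 libraries and lay under it in all T2 libraries. For Npc2 over Npc1 the same ratio was between 16.6 and 21.7 in the T1 replicates and between 25.9 and 30.3 in the T2 replicates. The exonic length counts every annotated exon, used or not, which for Lss comes to 10787 bases, so a gene with unused exons would be placed too low.

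**Figure D3:**
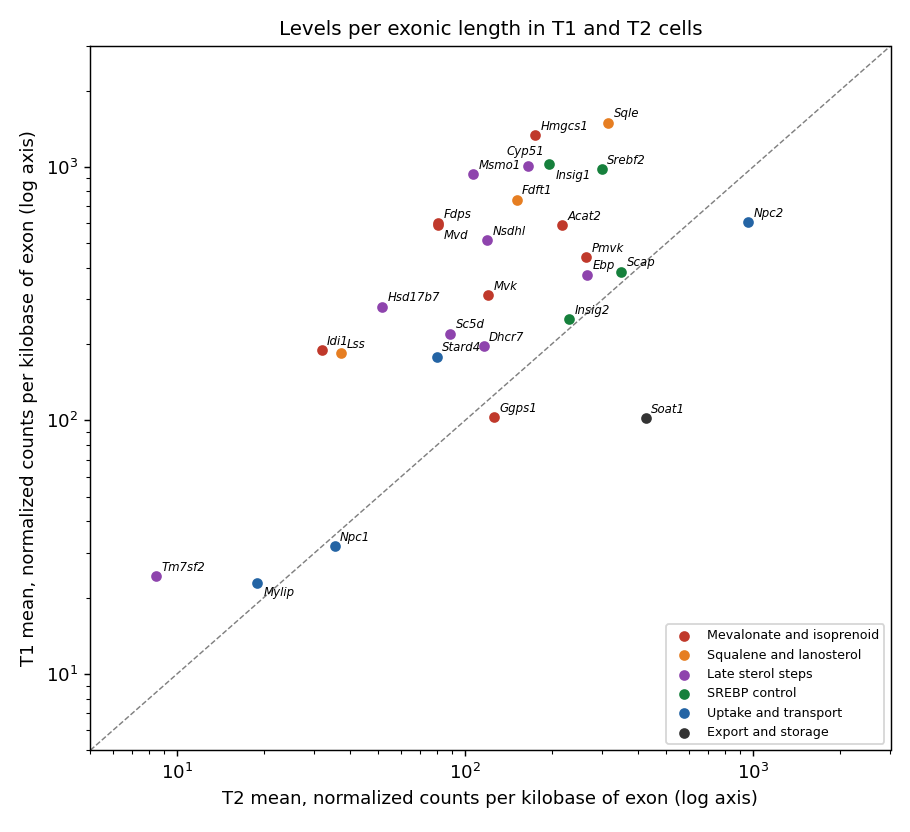
Mean level of each sterol gene in T1 cells (vertical axis) against T2 cells (horizontal axis), in normalized counts per kilobase of annotated exon on log axes, colored by pathway step, with the dashed line where both are equal and without Abca1 and Abcg1, each at 0 in a population. Most synthesis enzymes lie above the line, led by Sqle at 1494 in T1 cells, and Soat1 and Npc2 lie below it.

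The replicates of a population also differed, and this spread was not used to choose the genes. In 13 of the 19 synthesis enzymes the lowest T1 value was that of replicate 3 (68.4%), which was the case for 37.7% of all genes tested. The median difference of replicate 3 from the mean of the other T1 replicates was -0.14 on the log2 scale over the 19 enzymes and 0.01 over all genes tested. It was more than 0.5 lower in 4 of the 19, against 4.89% of all genes tested. These were Idi1 at -0.73, Hsd17b7 at -0.69, Cyp51 at -0.66 and Hmgcs1 at -0.59. Dhcr7 at -0.38, Sc5d at -0.36, Insig1 at -0.30 and Stard4 at -0.29 lay lower as well. Other enzymes did not share the shift. Fdps was 0.10 and Mvd 0.15 higher in replicate 3, and Fdft1 was 0.03 lower. Srebf2 itself was 0.03 higher there. In T2 cells the widest such difference among these genes was that of Insig1 in replicate 2, which was 0.79 above the mean of the other T2 replicates. Hsd17b7 was 0.42, Cyp51 0.37 and Srebf2 0.37 higher in that replicate. Fdft1 at -0.21, Acat2 at -0.18 and Fdps at -0.16 went the other way, and the median over the 19 enzymes was 0.02. The lowest T2 value was that of replicate 1 in 11 of the 19 enzymes (57.9%), against 28.9% of all genes tested. The median difference of T2 replicate 1 from the other T2 replicates was -0.08 over the 19 enzymes and 0.01 over all genes tested. Over the 19 enzymes the median SD between replicates was 0.12 in T1 and 0.12 in T2 cells on the log2 scale, close to 0.14 and 0.12 over all genes tested. Genes of a sample share its library and its culture, and with 3 replicates these differences are given as values with no test.

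**Figure D4:**
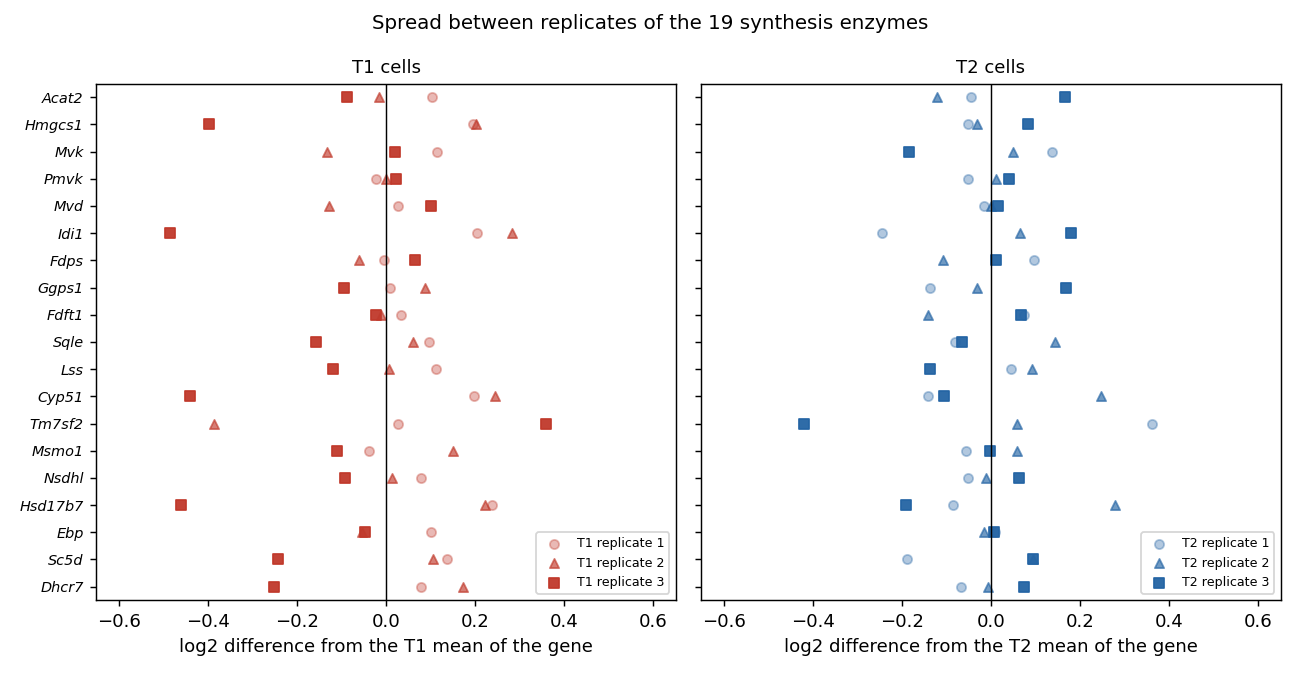
Log2 difference of each replicate from the mean of its population for the 19 synthesis enzymes, with T1 cells on the left and T2 cells on the right, and a symbol for each replicate. The T1 replicate 3 squares lie left of the others in 13 rows, farthest for Idi1, Hsd17b7, Cyp51 and Hmgcs1, while Fdps, Mvd and Tm7sf2 do not follow.

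The members lie on 16 chromosomes, with 4 of them on chromosome 13 (Hmgcs1, Idi1, Ggps1 and Mylip), 3 on chromosome 5 and 2 on X, so they are not a cluster in the genome. Ggps1 and Mylip on chromosome 13 did not share the difference of Hmgcs1 and Idi1. Exons of 20 members overlap no other annotated exon, and those of the other 10 do.

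Another 53 genes of the pathway were listed by role and not by their values, and 45 of them had enough reads. Earlier results of these data were known when the list was made, so its counts and p-values are given as a description. Of these 45, limma put 14 higher and 12 lower in T1 cells by the same adjusted p, beside the 25.1% and 24.4% of all genes, and 19 did not pass. Without T1 replicate 1, T1 replicate 2 or T2 replicate 3 the number higher was 9 each time. With the threshold on the fold change as well, 0 were higher and 1 lower. The median log2 fold change of the 45 was 0.07. Of the genes that cut SREBP or destroy sterol enzymes, 3 were higher and 2 lower of 10. Srebf1, the other SREBP gene, had a log2 fold change of 0.28 (adjusted p = 0.0118, limma), not past the threshold. Rnf145, a ubiquitin ligase of the sterol response and a known liver X receptor target, was at 2742 ± 296 in T1 and 5987 ± 91.7 in T2 cells (± SD, n = 3 per population), a log2 fold change of -1.13 (adjusted p = 2.04e-06, limma). Ube2g2, a ubiquitin-conjugating enzyme of protein degradation at the endoplasmic reticulum, was higher in T1 cells, with a log2 fold change of 0.73 (adjusted p = 0.00029, limma).

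The branches that use isoprenoids gave 7 of 10 higher and 0 lower in T1 cells, beside 25.1% and 24.4% of all genes. Rabggta, a subunit of the enzyme that geranylgeranylates Rab proteins, was at 1244 ± 150 in T1 and 447 ± 16.4 in T2 cells (± SD, n = 3 per population), a log2 fold change of 1.47 (adjusted p = 1.45e-06, limma). Its partner subunit Rabggtb had a log2 fold change of -0.15 and did not pass. Pdss2, which builds the side chain of ubiquinone, had a log2 fold change of 1.30 (adjusted p = 1.58e-05, limma). Among the reductases and electron donors listed for sterol synthesis, 1 of 5 was higher and 2 were lower. Cyb5b, an electron-carrying cytochrome, had a log2 fold change of 1.12 (adjusted p = 4.76e-06, limma) and Cyb5r3, a reductase of such cytochromes, of -0.99 (adjusted p = 8.1e-06, limma).

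Lipoprotein receptors and lysosomal genes had 0 higher and 3 lower of 5 tested, beside 25.1% and 24.4% of all genes. Lrp1, a large endocytic receptor, had 2746, 2293 and 3638 normalized counts in T1 and 7227, 8406 and 7184 in T2 cells, a log2 fold change of -1.42 (adjusted p = 1.49e-05, limma). Lipa, the lysosomal lipase that frees cholesterol from imported esters, had a log2 fold change of -0.89 (adjusted p = 0.00263, limma), and it missed the threshold without T1 replicate 1, T2 replicate 1 or T2 replicate 3. Genes that transfer sterol between membranes gave 2 higher and 3 lower of 10, near the same shares of all genes. Gramd1b had 4, 4 and 16 reads in the T1 libraries and 47, 46 and 48 in the T2 libraries, a log2 fold change of -2.66 (adjusted p = 0.000567, limma), and of -3.24 without T1 replicate 3. Its relative Gramd1c was higher in T1 cells, at 69.8 ± 9.80 against 34.2 ± 3.35 (± SD, n = 3 per population, adjusted p = 0.00254 by limma), and missed the threshold without T1 replicate 1, T1 replicate 2 or T2 replicate 1.

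Of 7 liver X receptor and oxysterol genes only 3 had enough reads. Lpcat3, a phospholipid acyltransferase and receptor target, was at 1037 ± 13.6 in T1 and 422 ± 18.4 in T2 cells (± SD, n = 3 per population), a log2 fold change of 1.30 (adjusted p = 1.11e-06, limma). The receptor genes Nr1h2 and Nr1h3 had log2 fold changes of -0.35 and 0.73 and did not pass. Ch25h and Cyp7b1, which make oxysterols, had no read in any library. The receptor targets Lpcat3 and Abcg1 had higher values in T1 cells, Rnf145 and Abca1 had higher values in T2 cells, and Mylip overlapped. Beside Soat1, the ester hydrolase Nceh1 was also lower in T1 cells, at 520 ± 57.8 against 963 ± 24.7 (± SD, n = 3 per population), with a log2 fold change of -0.90 (adjusted p = 4.31e-05, limma). Abca7, an ABC transporter of lipids, had a log2 fold change of -0.67 (adjusted p = 0.00347, limma), and 5 of its alternatives, 4 of them with a replicate left out, no longer passed.

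**Figure D5:**
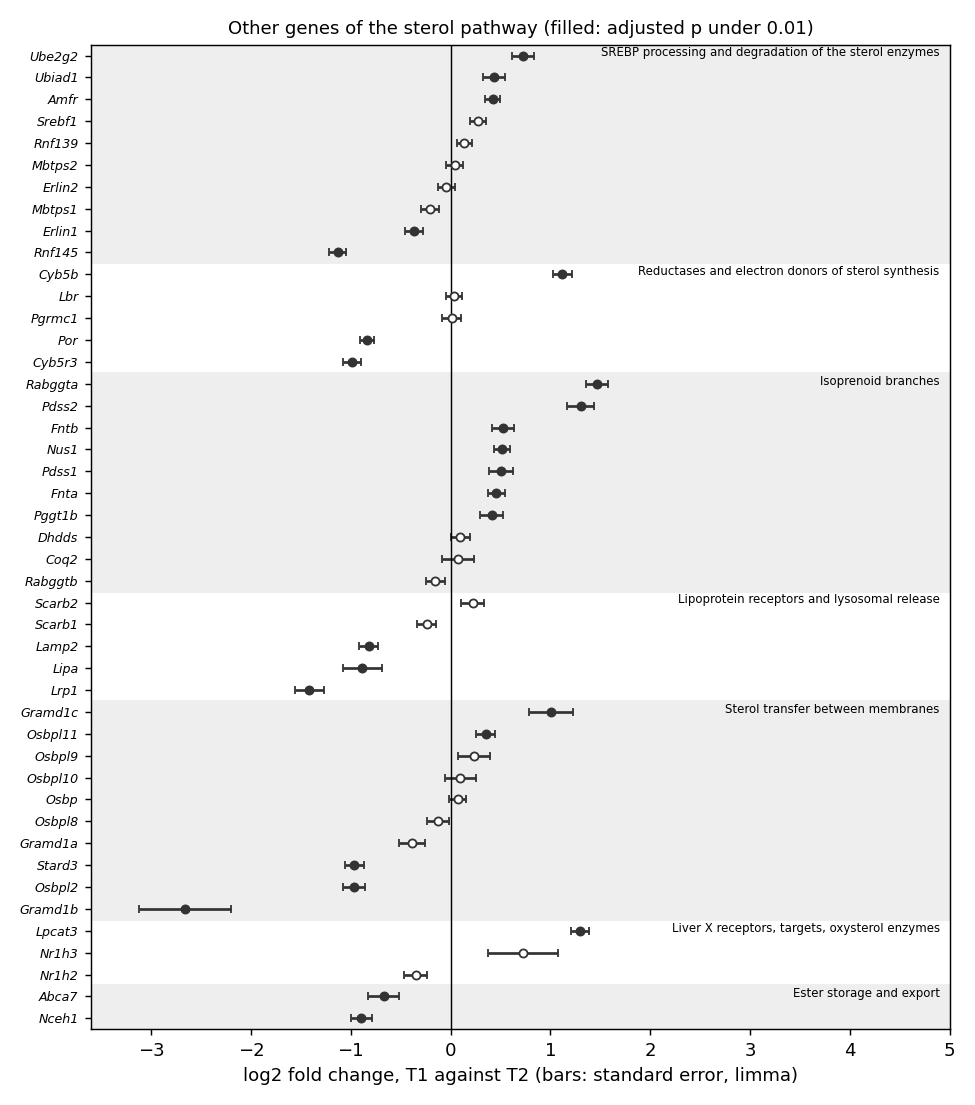
Log2 fold change, T1 against T2, with its standard error from limma, of the 45 other pathway genes with enough reads, grouped by role, filled where the adjusted p-value was under 0.01. Isoprenoid branches lie mostly to the right, with Rabggta at 1.47, and lipoprotein and lysosomal genes mostly to the left, with Lrp1 at -1.42, while the point farthest from 0 is Gramd1b at -2.66.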

How the data were processed

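RNA of 3 replicates of T1 and 3 of T2 cells was sequenced after poly(A) selection. According to the methods and processing notes, the authors used Trimmomatic for trimming, TopHat2 for alignment to mm10, HTSeq for gene counts and DESeq2 for scaling. The deposited values are a normalized signal, not raw counts. Tool versions, annotation and strand setting are not given in the sources used here. Up to a tolerance of 0.01, 100% of values were whole multiples of what 1 read is worth in the sample (0.928 to 1.06 normalized counts), so reads could be recovered.

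The 11514 genes averaging 10 normalized counts or more over the 6 samples were fitted in R 4.3.3 by limma 3.58.1, using a variance trend and the scale log2(normalized count + 1), on which the change of a low gene is understated. Benjamini-Hochberg adjustment covered all of them. The members and lists were chosen with earlier results of these data known. Every member is named, and of the other pathway genes the 2 with the largest change per role past the adjusted p-value and any also past a log2 fold change of 2. Other genes were named after their values were seen: Srebf1, Rabggtb, Nr1h2, Nr1h3, Ch25h and Cyp7b1.

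Coordinates, exonic lengths and overlaps came from GENCODE M21 on the same build, and near-identical copies from BLAST 2.17.0 (at least 95% identity over 300 bases). Alternatives covered the pseudocount, the filter, quantile normalization, limma without the trend, edgeR 4.0.16 and DESeq2 1.42.0 on the recovered reads, a term for the replicate number, and omission of single replicates. The tests were tested on simulated data. Figures were drawn with matplotlib 3.10.9.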

Additional observations from a re-analysis of the deposited data

How the results depend on the processing

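Over the alternatives, members past the adjusted p-value numbered 21 or 22 as higher and 2 or 3 as lower in T1 cells, and past both thresholds 12 or 13 as higher. Members past both as lower numbered 2 with no filter on low values, which lets Abca1 in, and between 0 and 1 with each replicate left out. Abcg1 fell under the filter at a mean of at least 50 and without each T1 replicate, and of the members fitted Soat1 was the only one whose call changed, at -1.98 without T1 replicate 3. Genes past both thresholds numbered 964, 974 with edgeR and 974 with DESeq2, and between 659 with a mean of at least 50 and 1272 with no filter. The other pathway genes higher in T1 cells numbered 9 to 13 with each replicate left out. The median of export and storage rests on Abcg1 and Soat1 alone: it was 1.17, but 1.66 and 0.14 with pseudocounts of 0.5 and 5, 2.68 with edgeR, 2.40 with DESeq2, -2.06 with no filter and -2.06 with a mean of at least 50, which drop or add a gene, and -2.15 to 1.20 with each replicate left out. The fitted change of Abcg1 ran from 2.34 to 7.42. Leaving out each replicate moved the median of the mevalonate and isoprenoid genes between 1.91 and 2.13 and that of SREBP control between 0.91 and 1.05.

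The labels link same-numbered samples by the number alone. Their deviations correlated at 0.06, 0.17 and 0.10 over genes, and those of differently numbered samples at -0.15 to 0.07. Whether same-numbered samples shared a batch was not tested. With the replicate number as a block 12 other pathway genes were higher and 12 lower, 13 members were past both thresholds as higher, and 967 genes were past both. Reads limit the values of Abca1 and Abcg1.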
